A study of Mus musculus with 9 samples.

Results

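The genes described here are 8 genes of lipid transport in the brain, Apoe, Clu, Apod, Abca1, Abcg1, Lrp1, Lpl and Scarb1. They were taken by their symbols from a table of 31053 genes, measured by single-nucleus RNA sequencing (snRNA-seq), and each symbol matched 1 gene. The libraries came from nuclei of pooled cortex and hippocampus, collected by flow sorting of single nuclei, with 1 library for each of 9 male C57BL/6 mice labelled as wild type. All 9 mice had received an adeno-associated virus (AAV) with the PHP.V1 capsid into the blood, at the same dose, 8 weeks before the tissue was taken. The transgene was driven by a short CLDN5 promoter, which is meant to act in endothelial cells, so no cell class described below other than endothelial cells was the intended target. Young AAV-EGFP mice were 5 months old and received EGFP, and aged AAV-EGFP mice were 19 months old and received EGFP. Aged AAV-B3GNT3 mice were 19 months old and received EGFP and B3GNT3 from 1 construct. B3GNT3 is a glycosyltransferase that adds to mucin-type O-glycans. Each group had 3 libraries, and every p-value here measures the spread between such libraries. Ageing means aged AAV-EGFP against young AAV-EGFP, and treatment means aged AAV-B3GNT3 against aged AAV-EGFP. By the study's methods the aged mice came from the National Institute on Aging and the young mice from Jackson Laboratories, so age and supplier cannot be told apart. Both comparisons use the same 3 aged AAV-EGFP libraries, so a value that stands out in that group enters both, with opposite signs.

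Lipids leave and enter brain cells on lipoprotein particles that resemble high-density lipoprotein. Apoe encodes apolipoprotein E, the main protein of these particles, and Clu encodes clusterin, also called apolipoprotein J. Astrocytes are the best known source of both, and microglia make apolipoprotein E as well, in amounts that rise when they become activated. The transporters ABCA1 and ABCG1 load cholesterol and phospholipid onto the particles, and receptors such as LRP1 and SR-B1 (the product of Scarb1) take particles or their lipids up. Lipoprotein lipase, encoded by Lpl, frees fatty acids from triglycerides, and apolipoprotein D, encoded by Apod, is a lipocalin that binds small lipids in oligodendrocytes and in fibroblasts of the brain coverings. The liver X receptors (LXR), which sense oxidised cholesterol, switch on Apoe, Abca1, Abcg1 and Srebf1.

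On the mouse genome build GRCm38 all 8 are protein-coding genes. Apoe lies at chr7:19696109-19699188 on the minus strand and Clu at chr14:65968483-65981547 on the plus strand. Apod lies at chr16:31296192-31314808 on the minus strand. Abca1 lies at chr4:53030787-53159895 on the minus strand, and Abcg1 at chr17:31057675-31117988 on the plus strand, where it shares bases with a small same-strand gene, Gm25447. Lrp1 lies at chr10:127538161-127621148 on the minus strand with a gene on the opposite strand, Gm16217, inside it, and Scarb1 at chr5:125277087-125341094 on the minus strand shares bases with Gm42633. Lpl lies at chr8:68880491-68907448 on the plus strand.

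A DNA element known for LXR was looked for in the promoters of these genes. RefSeq promoter windows on GRCm38.p6, from 250 bases before to 50 bases after a start, were at hand for 4 of the 8 genes (Apoe, Apod, Abca1 and Lrp1) and for 33 of 42 other lipid transport genes. The LXR element was searched on both strands as GGTTACT, then 2 free bases, then CGGTCA. These fixed letters are the ones that the Abca1 and Srebf1 elements printed below share. A match in those 2 genes therefore came with the choice of letters and is no finding. The element was present in 3 of 32851 mouse promoters (0.00913%), and these included Abca1 and Srebf1, which encodes the activator of fatty acid synthesis. Both are shown because they are the LXR targets of the set with the element in the window, with its letters in capitals as they read on the gene's strand. The Abca1 window is chr4:53159846-53160145 (minus strand) with the element 52 bases before the start, and the Srebf1 window is chr11:60210422-60210721 (minus strand) with the element 167 bases before the start.
Abca1: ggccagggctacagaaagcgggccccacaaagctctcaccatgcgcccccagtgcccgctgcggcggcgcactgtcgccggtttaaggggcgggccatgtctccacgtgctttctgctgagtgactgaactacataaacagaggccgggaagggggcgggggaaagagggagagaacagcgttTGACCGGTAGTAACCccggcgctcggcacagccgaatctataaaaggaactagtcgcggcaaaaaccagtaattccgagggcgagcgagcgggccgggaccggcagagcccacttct
Srebf1: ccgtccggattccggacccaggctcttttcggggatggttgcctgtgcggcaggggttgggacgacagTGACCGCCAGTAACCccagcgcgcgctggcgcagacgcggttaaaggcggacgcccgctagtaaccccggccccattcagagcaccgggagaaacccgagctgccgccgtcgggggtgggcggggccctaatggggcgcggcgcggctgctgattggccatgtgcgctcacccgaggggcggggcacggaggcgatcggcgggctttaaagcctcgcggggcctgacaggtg
The 3 Apoe windows held no element with these letters, which does not speak to LXR elements with other letters. The window at the inner Apoe start, chr7:19698572-19698871 on the minus strand, is shown because it held TATAAA, the letters of a TATA box, which 13.6% of promoters hold on either strand. In it the capitals mark 2 overlapping matches, 1 on each strand.
Apoe: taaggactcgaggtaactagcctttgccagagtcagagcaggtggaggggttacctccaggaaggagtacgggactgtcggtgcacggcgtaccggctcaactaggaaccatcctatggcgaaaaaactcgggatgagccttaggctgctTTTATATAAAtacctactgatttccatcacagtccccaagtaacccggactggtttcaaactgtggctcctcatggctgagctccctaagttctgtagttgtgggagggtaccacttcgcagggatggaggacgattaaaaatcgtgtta
These matches are a description of letters and not of binding.

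The 9 libraries held 77823 barcodes and 47332047 to 79964605 UMIs (unique molecular identifiers, 1 for each captured RNA molecule) each, and 5790 to 9282 nuclei a library passed the filters, 70420 in all. Of the barcodes of a library, 118 to 202 also occurred in another library. Clusters were named from marker genes, which gave 11 classes, and 10 of these had enough nuclei in every library to be tested. The classes were checked against their markers: astrocytes summed 27749 to 28816 CPM in young AAV-EGFP, 31082 to 37339 CPM in aged AAV-EGFP and 25466 to 27514 CPM in aged AAV-B3GNT3 over 10 astrocyte markers, all 10 present in every library. Microglia held the 9 microglia markers in every library too, beside 463 to 2508 CPM over 6 markers of border macrophages, which formed no class of their own. A class with the marker genes of striatal projection neurons was found although the labels name cortex and hippocampus. Counts were summed per library and class and are given as CPM, the usual scale of counts relative to all UMIs of that class and library, on scaled totals.

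The aged AAV-EGFP libraries stood apart from both other groups in a measure that is no lipid gene. The summed CPM of 76 ribosomal protein genes was higher in all 3 aged AAV-EGFP libraries than in any library of either other group in 10 of 10 classes tested. In astrocytes the sum was 1281 to 1524 CPM in young AAV-EGFP, 1627 to 2382 CPM in aged AAV-EGFP and 1056 to 1177 CPM in aged AAV-B3GNT3. In microglia it was 1648 to 2014 CPM in young AAV-EGFP, 2636 to 4060.3 CPM in aged AAV-EGFP and 1604 to 2098 CPM in aged AAV-B3GNT3. Tested gene by gene, ribosomal protein genes rose with age in 129 of 677 gene and class pairs and fell in 2, and with treatment they fell in 119 and rose in 0. In all 19.4% of these pairs passed with age and 17.6% with treatment, beside 7.72% and 2.44% of the pairs of all genes. Oligodendrocytes held 64 of the rises and 65 of the falls, and 21.2% and 9.69% of all genes passed there. Malat1, an RNA that stays in the nucleus, measured 33319 to 47792 CPM in young AAV-EGFP, 50525 to 63993 CPM in aged AAV-EGFP and 33611 to 34393 CPM in aged AAV-B3GNT3 astrocytes. The part of these differences in the values below was not tested, and ribosomal values are given beside the results on Apoe, Clu, Apod, Lrp1, Scarb1 and Fabp5.

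The 8 genes divided the classes between them (the heat map of mean levels shows each value). Apoe and Clu were highest in astrocytes, Apod in fibroblasts and oligodendrocytes, Abca1 and Lrp1 in microglia, Abcg1 in oligodendrocytes and their precursors, Scarb1 in endothelial cells and pericytes, and Lpl in striatal-type neurons. A mean level is the mean over 9 libraries with its SD, and neighbours in the order are compared library by library.

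**Figure D1:**
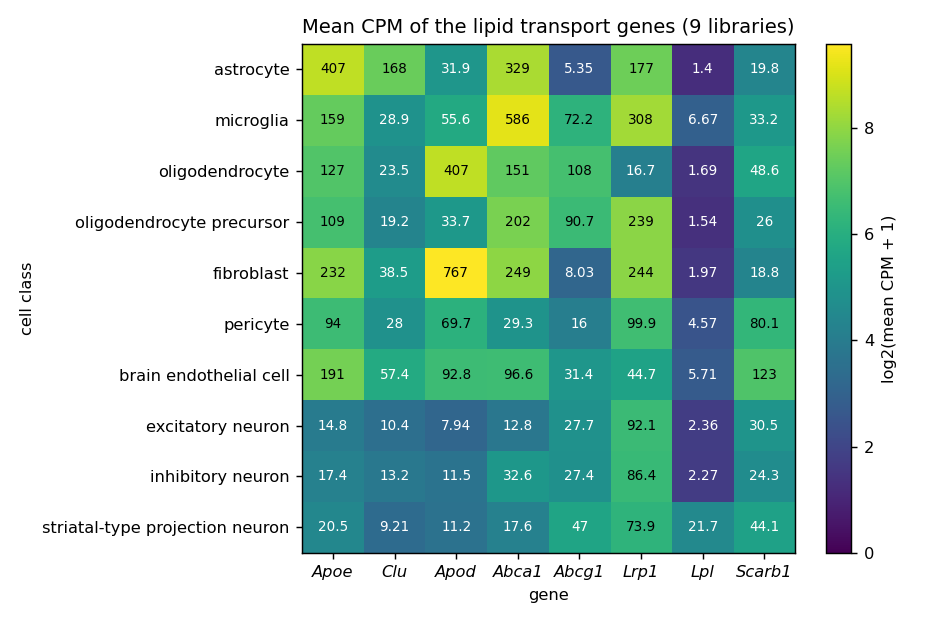
Mean CPM over 9 libraries of the 8 genes (columns) in 10 cell classes (rows), with colour on a log2(mean CPM + 1) scale and the mean CPM written in each cell. Apoe is highest in astrocytes (407 CPM), Abca1 in microglia (586 CPM) and Apod in fibroblasts (767 CPM), while Lpl stays under 7 CPM outside striatal-type projection neurons. Colours compare classes within a column, since CPM takes no account of gene length.

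Apoe changed in more classes than any other of the 8 genes: it rose with age in 5 of 10 classes tested and fell with treatment in the same 5, namely astrocytes, microglia, oligodendrocytes, their precursors and fibroblasts. In each of these classes all 3 aged AAV-EGFP libraries were above all 6 others, and the fitted change was 1.97- to 2.36-fold in either direction. It did not pass the test in neurons, pericytes or endothelial cells. Levels were highest in astrocytes at 407 ± 204 CPM, above the next class in 9 of 9 libraries. Fibroblasts followed at 232 ± 97.6 CPM, endothelial cells at 191 ± 112 CPM and microglia at 159 ± 64.3 CPM. Those 3 classes kept this order in only 6 or 7 of 9 libraries from one neighbour to the next, so neighbours were not set apart in every library. Fibroblasts were above microglia in every library. Oligodendrocytes (127 ± 64.5 CPM), precursors (109 ± 54.1 CPM) and pericytes (94 ± 37.6 CPM) came next, and the 3 neuron classes were lowest, at 14.8 to 20.5 CPM.

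In astrocytes Apoe measured 369, 272 and 246 CPM in the young AAV-EGFP libraries, 442, 761 and 738 CPM in the aged AAV-EGFP libraries and 296, 279.9 and 257 CPM in the aged AAV-B3GNT3 libraries. The lowest aged AAV-EGFP library was still above the highest young library, by a smaller margin than the others, and the aged AAV-B3GNT3 libraries lay within the range of the young ones. The astrocyte marker sums given above were also higher in every aged AAV-EGFP library than in any other. Their part in the Apoe values was not tested. The fitted log2 fold change of Apoe was 1.13 ± 0.20 (SE) with age, a 2.19-fold rise at adjusted p = 0.00313, and -1.22 ± 0.20 with treatment at adjusted p = 0.010. With each library left out in turn the rise with age passed in 9 of 9 fits and the fall with treatment in 8 of 9, with adjusted p = 0.0591 without aged AAV-B3GNT3 replicate 2. The share of astrocytes with at least 1 Apoe UMI, at a fixed 1000 UMIs a nucleus, was 19.8 to 29.5% in young AAV-EGFP, 32.1 to 47.2% in aged AAV-EGFP and 22.6 to 26.6% in aged AAV-B3GNT3. Before thinning these shares were 46.5 to 60.3% in young AAV-EGFP, 61.5 to 78.9% in aged AAV-EGFP and 48.1 to 60.7% in aged AAV-B3GNT3. In excitatory neurons, the class with the lowest Apoe level, the thinned share was 1.1 to 2.18% at median depths of 2973 UMIs for astrocytes and 10577 UMIs for excitatory neurons. Free RNA was estimated at 4.4 to 7.09% of all UMIs of excitatory neurons, so the neuron share is no measure of the astrocyte background. In astrocytes the estimate was 19.8 to 21.4% in young AAV-EGFP, 10.0 to 14.1% in aged AAV-EGFP and 14.0 to 18.0% in aged AAV-B3GNT3, highest in the young libraries and overlapping narrowly between the aged groups. Of the Apoe UMIs of astrocytes it was 1.03 to 3.62%, and with it subtracted the log2 fold changes were 1.03 ± 0.21 and -1.16 ± 0.21, both past the threshold. The estimate took free RNA to have the profile of all barcodes of a library, in which Apoe was at 29.5 to 77.5 CPM. Free RNA richer in Apoe than that would be subtracted too little, and this was not tested. Thinning left out 52 of 8464 astrocytes.

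Astrocytes fell into 2 sub-clusters at a finer clustering, and the order of the group means was the same in both. The smaller held 22.8 to 32.3% in young AAV-EGFP, 11.7 to 22.2% in aged AAV-EGFP and 7.03 to 24.3% in aged AAV-B3GNT3 of the astrocytes of a library. In the larger, of 6670 nuclei, Apoe measured 342, 240.4 and 219.6 CPM in the young AAV-EGFP libraries, 420.4, 662 and 702 CPM in the aged AAV-EGFP libraries and 311, 261 and 270.3 CPM in the aged AAV-B3GNT3 libraries. The smaller, of 1779 nuclei, had Gfap among its leading genes and measured 480.2, 309.6 and 294 CPM in the young AAV-EGFP libraries, 472, 992 and 1489.7 CPM in the aged AAV-EGFP libraries and 495, 402 and 308 CPM in the aged AAV-B3GNT3 libraries. In the smaller sub-cluster 1 aged AAV-EGFP library lay within the range of the other groups, so the groups overlapped there. These values are a description, since the clusters were built from the same nuclei.

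In oligodendrocytes, the myelin-forming cells, Apoe measured 111, 96.6 and 62.1 CPM in the young AAV-EGFP libraries, 140.1, 262 and 197 CPM in the aged AAV-EGFP libraries and 102, 97 and 71.2 CPM in the aged AAV-B3GNT3 libraries. The 3 aged AAV-EGFP libraries were the 3 highest. The 8 oligodendrocyte markers summed to 14876 to 16968 CPM in young AAV-EGFP, 17373 to 19550.4 CPM in aged AAV-EGFP and 13274 to 15043 CPM in aged AAV-B3GNT3 in the same nuclei, also without overlap between aged AAV-EGFP and either other group. The share of mitochondrial UMIs was 0.00813 to 0.0136% in young AAV-EGFP, 0.0121 to 0.0209% in aged AAV-EGFP and 0.00626 to 0.00903% in aged AAV-B3GNT3, without overlap between the aged groups. The part of these measures in the Apoe values was not tested. The log2 fold change was 1.15 ± 0.24 with age (adjusted p = 0.00614) and -1.15 ± 0.24 with treatment (adjusted p = 0.0138). Age was past the threshold in 9 of 9 fits that left out a library, and treatment was not past it without aged AAV-EGFP replicate 2 or aged AAV-B3GNT3 replicate 2, at adjusted p up to 0.0580, nor with free RNA subtracted (-1.07 ± 0.26, adjusted p = 0.0587). The free RNA estimate of this class was 18.2 to 21.5% in young AAV-EGFP, 9.14 to 13.8% in aged AAV-EGFP and 17.4 to 22.0% in aged AAV-B3GNT3.

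The groups filled different oligodendrocyte clusters. At the finer clustering 4 clusters with 17130 nuclei were named oligodendrocytes. A cluster of 4612 nuclei led by Fbxw15 held 1.10 to 2.20% in young AAV-EGFP, 42.5 to 71.1% in aged AAV-EGFP and 5.30 to 16.6% in aged AAV-B3GNT3 of those of a library, and a cluster of 6638 led by C030029H02Rik held 49.1 to 64.6% in young AAV-EGFP, 4.26 to 29% in aged AAV-EGFP and 53 to 57.5% in aged AAV-B3GNT3. The part of this difference in the class values was not tested, and the values within the clusters follow as a description. In the Fbxw15 cluster, which had only 21 to 25 nuclei in a young library, Apoe measured 182, 121 and 54.1 CPM in the young AAV-EGFP libraries, 171, 278 and 221 CPM in the aged AAV-EGFP libraries and 153, 164 and 96 CPM in the aged AAV-B3GNT3 libraries. The ages overlapped in that cluster, and the aged groups did not, by a narrow margin. In the C030029H02Rik cluster Apoe measured 115, 90.5 and 60.3 CPM in the young AAV-EGFP libraries, 121, 197 and 182 CPM in the aged AAV-EGFP libraries and 112, 101 and 75.7 CPM in the aged AAV-B3GNT3 libraries. There the aged AAV-EGFP libraries lay above all others, the lowest by a narrow margin. The other clusters, of 4074 nuclei led by Enpp6 and 1806 led by 9330111N05Rik, had Apoe at 51 to 92.2 CPM in young AAV-EGFP, 92.8 to 149 CPM in aged AAV-EGFP and 54 to 86 CPM in aged AAV-B3GNT3, and at 65 to 105 CPM in young AAV-EGFP, 107 to 191 CPM in aged AAV-EGFP and 63.3 to 84.4 CPM in aged AAV-B3GNT3, without overlap but with the lowest aged AAV-EGFP library close to the highest young one.

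In oligodendrocyte precursors, the dividing cells that become oligodendrocytes, it measured 77.3, 77.8 and 80.4 CPM in the young AAV-EGFP libraries, 119.7, 192 and 207 CPM in the aged AAV-EGFP libraries and 75, 85.8 and 61.5 CPM in the aged AAV-B3GNT3 libraries. The 6 libraries outside the aged AAV-EGFP group spanned a narrow range there. Between the aged groups the 7 precursor markers (17010.4 to 21524 CPM in young AAV-EGFP, 19094 to 25557 CPM in aged AAV-EGFP and 17139 to 18089.7 CPM in aged AAV-B3GNT3) and the share of mitochondrial UMIs (0.00628 to 0.00960% in young AAV-EGFP, 0.00643 to 0.0113% in aged AAV-EGFP and 0.00465 to 0.00578% in aged AAV-B3GNT3) did not overlap either, and their part was not tested. In precursors the log2 fold change was 1.14 ± 0.20 with age (adjusted p = 0.0318) and -1.24 ± 0.20 with treatment (adjusted p = 0.0335). Its adjusted p lay near the threshold, while the log2 fold change stayed at 0.99 to 1.34 with age and -1.45 to -1.09 with treatment over the 9 fits that left out a library. With age it did not pass without young AAV-EGFP replicates 1, 2 or 3, aged AAV-EGFP replicates 2 or 3 or aged AAV-B3GNT3 replicates 1 or 2, at adjusted p up to 0.176. With treatment it did not pass without young AAV-EGFP replicate 3, aged AAV-EGFP replicates 2 or 3 or aged AAV-B3GNT3 replicates 1, 2 or 3, at adjusted p up to 0.287. Neither call passed with the replicate number as a block (1.13, adjusted p = 0.0502 with age and -1.22, adjusted p = 0.0680 with treatment) or with the compared groups alone (1.14, adjusted p = 0.108 and -1.24, adjusted p = 0.0682).

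In microglia, the resident macrophages of the brain, Apoe measured 93.6, 127 and 129 CPM in the young AAV-EGFP libraries, 271, 239.6 and 206 CPM in the aged AAV-EGFP libraries and 109.6, 103 and 150.3 CPM in the aged AAV-B3GNT3 libraries. All 3 aged AAV-EGFP values were above the highest of the other 6. Other measures of these nuclei were also higher in all aged AAV-EGFP than in all young libraries. The 9 microglia markers summed to 5024 to 6179 CPM in young AAV-EGFP, 6818 to 8369 CPM in aged AAV-EGFP and 6032 to 7180.4 CPM in aged AAV-B3GNT3, and the share of mitochondrial UMIs was 0.00695 to 0.0141% in young AAV-EGFP, 0.0146 to 0.0238% in aged AAV-EGFP and 0.00853 to 0.0183% in aged AAV-B3GNT3. Both overlapped between the aged groups, and their part in the Apoe values was not tested. The fitted change (log2) was 1.05 ± 0.22 with age (adjusted p = 0.0197) and -0.98 ± 0.20 with treatment (adjusted p = 0.0468). Age did not pass without young AAV-EGFP replicates 1 or 2 or aged AAV-EGFP replicate 2, at adjusted p up to 0.0649, and treatment did not pass without young AAV-EGFP replicates 2 or 3, aged AAV-EGFP replicate 2 or aged AAV-B3GNT3 replicates 1 or 2, at adjusted p up to 0.344. The microglia hold 593 Apoe UMIs in all, against 10193 in astrocytes, and free RNA was estimated at 4.02 to 18.3% of the microglial Apoe UMIs of a library. With that estimate subtracted, the log2 fold changes were 1.02 ± 0.25 (adjusted p = 0.0603) and -0.96 ± 0.23 (adjusted p = 0.120). Treatment did not pass with the block (-0.99, adjusted p = 0.0609) or with the compared groups alone (-0.98, adjusted p = 0.0809) either. The log2 fold change over the libraries left out was 0.92 to 1.16 with age and -1.17 to -0.88 with treatment.

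In fibroblasts of the brain coverings Apoe measured 173, 179 and 157 CPM in the young AAV-EGFP libraries, 289, 386 and 392 CPM in the aged AAV-EGFP libraries and 154, 169 and 188 CPM in the aged AAV-B3GNT3 libraries. The young and the aged AAV-B3GNT3 libraries covered nearly the same range and the aged AAV-EGFP libraries lay above it. In this class the log2 fold change was 1.08 ± 0.18 with age (adjusted p = 0.0322) and -1.08 ± 0.18 with treatment (adjusted p = 0.0459). Both calls were kept in 1 of 9 fits that left out a library, the one that dropped replicate 1 of aged AAV-EGFP. The other 8 fits dropped young AAV-EGFP replicates 1, 2 or 3, aged AAV-EGFP replicates 2 or 3 or aged AAV-B3GNT3 replicates 1, 2 or 3, and in all 9 the log2 fold change was 0.98 to 1.18 with age and -1.18 to -0.99 with treatment, while in the 8 the adjusted p reached 0.162 with age and 0.329 with treatment. With the compared groups alone neither call passed (1.08, adjusted p = 0.121 and -1.08, adjusted p = 0.118). The fall with treatment was also lost at the finer clustering, with free RNA subtracted, without doublet removal and with the block, at log2 fold changes from -1.07 ± 0.18 to -0.82 ± 0.17 and at adjusted p of 0.0743 to 0.0855. Some marker sums of other cells were also higher in the aged AAV-EGFP than in the young fibroblasts, and some were lower. The 6 border macrophage markers, 2 of them at 0 in every library, summed to 0 to 4.63 CPM in young AAV-EGFP, 5.36 to 107 CPM in aged AAV-EGFP and 0 to 3.38 CPM in aged AAV-B3GNT3, without overlap in either comparison. The 9 microglia markers summed to 56.4 to 74.1 CPM in young AAV-EGFP, 117 to 223 CPM in aged AAV-EGFP and 58.2 to 159.8 CPM in aged AAV-B3GNT3, without overlap between the ages. The 5 vascular smooth muscle markers were higher too, at 30.7 to 39.1 CPM in young and 46.6 to 247 CPM in aged AAV-EGFP. Lower without overlap between the ages were the 9 inhibitory neuron markers (509 to 742 and 221 to 491 CPM) and the 7 precursor markers (572 to 901 and 281 to 555 CPM). The other lists overlapped between the ages. Border macrophages and microglia are known to make Apoe, and the part of such cells in the fibroblast values was not tested. Of the fibroblast nuclei, a cluster of 1215 led by Lama1 measured 248, 211 and 188 CPM in the young AAV-EGFP libraries, 371, 482 and 537 CPM in the aged AAV-EGFP libraries and 233, 225 and 239 CPM in the aged AAV-B3GNT3 libraries. The other cluster, of 567 nuclei led by Bnc2, measured 39.6, 57.8 and 84.9 CPM in the young AAV-EGFP libraries, 141, 126 and 99.6 CPM in the aged AAV-EGFP libraries and 48.5, 78.2 and 103 CPM in the aged AAV-B3GNT3 libraries. The aged AAV-EGFP libraries of the first cluster lay above all others, and those of the second overlapped at its upper end with 1 aged AAV-B3GNT3 library.

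The classes in which Apoe did not pass were endothelial cells and pericytes, with few nuclei, and the neurons, with low levels. Endothelial cells, the intended target of the virus, measured 109, 206 and 84.2 CPM in the young AAV-EGFP libraries, 439.6, 154 and 296 CPM in the aged AAV-EGFP libraries and 140.4, 159 and 127 CPM in the aged AAV-B3GNT3 libraries. One aged AAV-EGFP library was below the highest young library, so the groups overlapped. Its fitted log2 change was 1.13 ± 0.38 with age (adjusted p = 0.225) and -1.04 ± 0.38 with treatment (adjusted p = 0.301), from 305 Apoe UMIs and 50 to 120 nuclei a library. In pericytes, which wrap the capillaries, the values were 83.4, 74.5 and 44.2 CPM (young AAV-EGFP), 147, 151 and 74.6 CPM (aged AAV-EGFP) and 60.6, 122 and 88.8 CPM (aged AAV-B3GNT3), with overlap and a log2 fold change of 0.77 ± 0.36 with age (adjusted p = 0.278) and -0.38 ± 0.35 with treatment (adjusted p = 0.760). In excitatory neurons, with 3417 Apoe UMIs, they were 18.2, 18.5 and 10 CPM (young AAV-EGFP), 15.1, 20.9 and 12.7 CPM (aged AAV-EGFP) and 12.3, 15.4 and 9.70 CPM (aged AAV-B3GNT3). The log2 fold change there was 0.06 ± 0.25 with age (adjusted p = 0.880) and -0.39 ± 0.25 with treatment (adjusted p = 0.373). The SE was close to that of oligodendrocytes, and the part of nuclei number and of the low level in the small value with age was not tested. Free RNA was estimated at 16.2 to 25.1% of the Apoe UMIs of excitatory neurons.

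**Figure D2:**
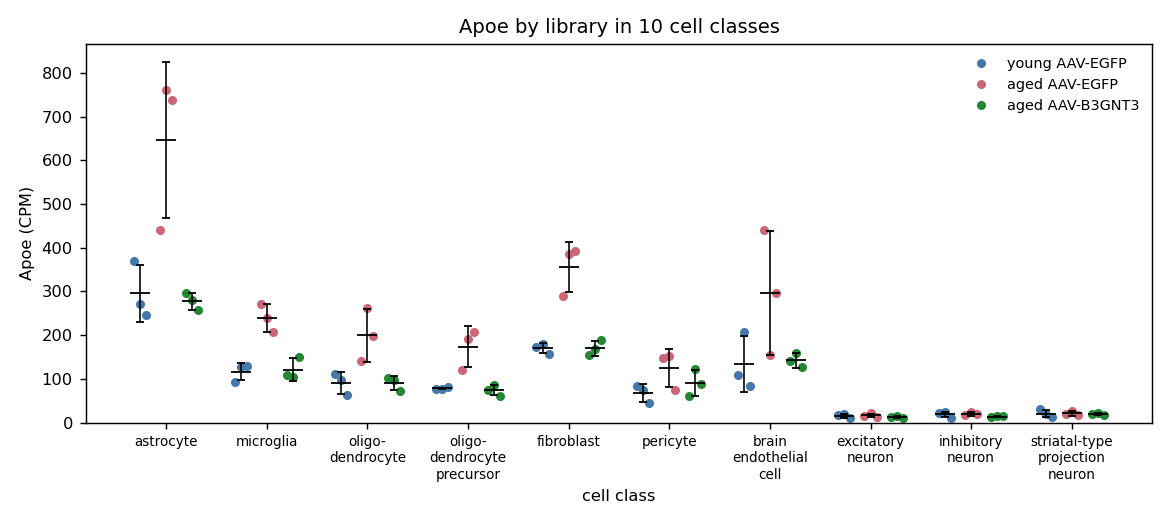
Apoe in CPM (y axis) in each library, by cell class (x axis) and group (colour), with the mean as a black bar and the SD of 3 libraries as whiskers. In astrocytes, microglia, oligodendrocytes, their precursors and fibroblasts the 3 aged AAV-EGFP points lie above the other 6, while pericytes, endothelial cells and neurons overlap.

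The ribosomal sum was highest in the aged AAV-EGFP libraries in all 10 classes tested, both the 5 in which Apoe passed and the 5 in which it did not. In precursors, where Apoe passed in both comparisons, 1 of 71 ribosomal protein genes passed with age and 0 with treatment in edgeR, in a class where few genes passed at all (0.422% and 0.0656%). At an unadjusted p under 0.05 there were 30 and 34, the median log2 fold change of the 71 was 0.62 with age and -0.66 with treatment, and the sums were 918 to 992 CPM in young AAV-EGFP, 1108 to 1664 CPM in aged AAV-EGFP and 844 to 929 CPM in aged AAV-B3GNT3. Counted per 1000 UMIs of ribosomal protein genes in the same class and library, Apoe in astrocytes measured 288, 178 and 177 UMIs in the young AAV-EGFP libraries, 271, 319.5 and 368 UMIs in the aged AAV-EGFP libraries and 280.0, 248 and 219 UMIs in the aged AAV-B3GNT3 libraries. The groups overlapped on that scale. They did so in 9 of 10 classes in each comparison, and precursors were the class without overlap, at 84.3, 78.4 and 83.4 UMIs in the young AAV-EGFP libraries, 108, 115 and 141 UMIs in the aged AAV-EGFP libraries and 88.8, 98.3 and 66.2 UMIs in the aged AAV-B3GNT3 libraries. With the log2 ribosomal sum of the class as a covariate in the fit, the log2 fold change of Apoe in astrocytes was 0.73 ± 0.35 with age (adjusted p = 0.477) and -0.60 ± 0.50 with treatment (adjusted p = 0.848). In oligodendrocytes it was 0.49 ± 0.54 and -0.44 ± 0.58, and in microglia 0.85 ± 0.43 and -0.79 ± 0.41. It was 0.52 ± 0.30 and -0.49 ± 0.35 in precursors and 0.82 ± 0.29 and -0.80 ± 0.31 in fibroblasts. The values in these 5 classes kept their sign but were smaller than without the covariate, most so in oligodendrocytes and precursors, and had larger errors. The covariate itself did not overlap between aged AAV-EGFP and either other group. In endothelial cells the sign turned, to -0.63 ± 0.73 and 0.89 ± 0.78. In that fit 0 of 69 pairs of the 8 genes and a class passed in edgeR in either comparison, and 4 with age and 5 with treatment had an unadjusted p under 0.05. The share of all genes that passed in that fit is not given here, so these counts are no result about the 8 genes. Outside Apoe, Scarb1 in excitatory neurons was -0.45 ± 0.19 with age and 0.54 ± 0.20 with treatment, and Lrp1 there -0.37 ± 0.23 with age.

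**Figure D3:**
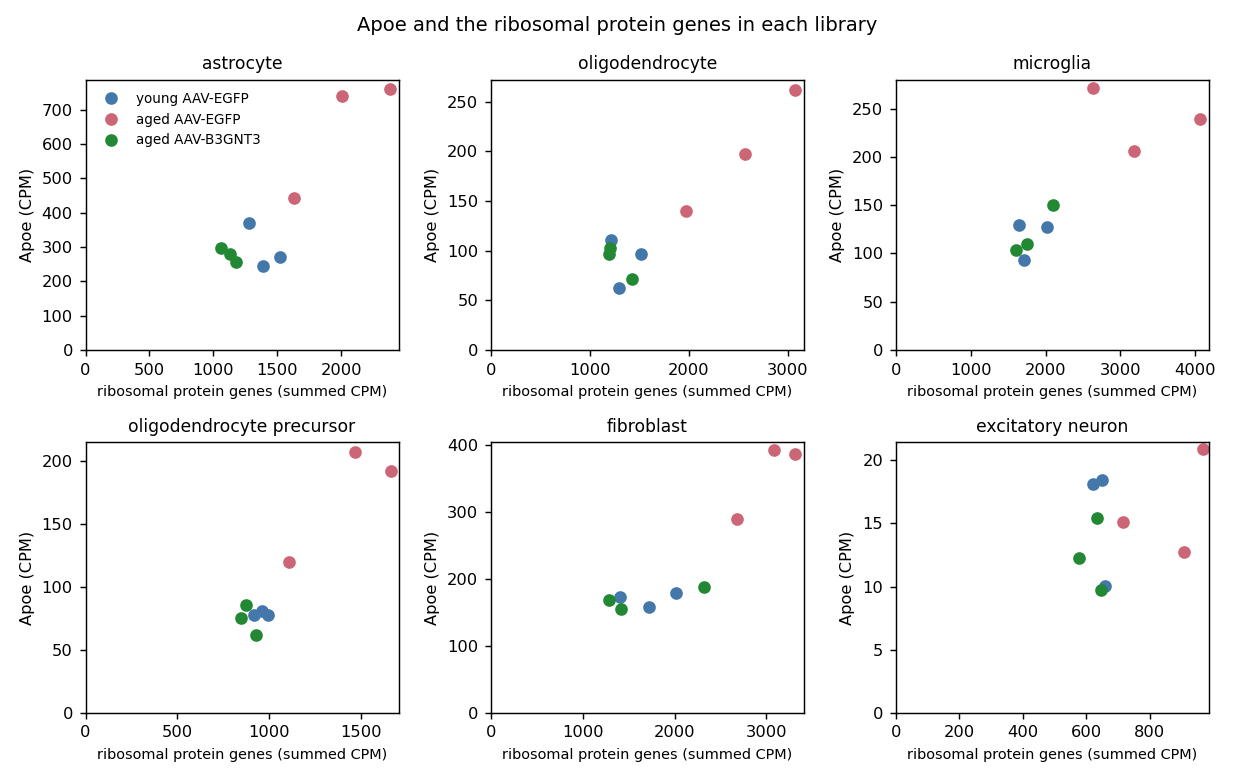
Apoe in CPM (y axis) against the summed CPM of 76 ribosomal protein genes (x axis) in the same class and library, for 6 classes, with 1 point a library coloured by group. In 5 classes the aged AAV-EGFP points lie to the right of and above the other groups. In excitatory neurons they lie to the right, at Apoe values of 12.7 to 20.9 CPM that overlap the others.

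Clu fell with treatment in astrocytes, and its rise with age there missed the threshold. Astrocytes were the class with the highest level, 168 ± 57.8 CPM, above the next class, endothelial cells (57.4 ± 25.3 CPM), in 9 of 9 libraries. The other classes lay between 9.21 and 38.5 CPM. In astrocytes Clu measured 186, 142 and 121 CPM in the young AAV-EGFP libraries, 167, 264 and 259.5 CPM in the aged AAV-EGFP libraries and 135, 138 and 104 CPM in the aged AAV-B3GNT3 libraries. The lowest aged AAV-EGFP library lay inside the range of the young libraries and above all aged AAV-B3GNT3 libraries. The astrocyte marker sums were higher in every aged AAV-EGFP library than in any other, and their part in the Clu values was not tested. The fitted change (log2) of Clu was 0.62 ± 0.20 with age (adjusted p = 0.0535) and -0.87 ± 0.20 with treatment (adjusted p = 0.0246), a 1.83-fold fall. The rise with age passed in DESeq2, with its size factors, without doublet removal, without a filter on low counts and without aged AAV-EGFP replicate 1 or young AAV-EGFP replicate 1 (0.61 to 0.82, adjusted p from 0.00412 to 0.0491). The fall did not pass without aged AAV-EGFP replicates 2 or 3 or aged AAV-B3GNT3 replicates 1, 2 or 3, at adjusted p up to 0.105, nor with the free RNA estimate subtracted (-0.81 ± 0.21, adjusted p = 0.0838), nor with the ribosomal covariate (-0.43 ± 0.51, adjusted p = 0.913).

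At the finer clustering, Clu in the larger astrocyte sub-cluster measured 175, 131 and 113 CPM in the young AAV-EGFP libraries, 159, 226 and 242 CPM in the aged AAV-EGFP libraries and 147, 145 and 114 CPM in the aged AAV-B3GNT3 libraries. In the smaller it measured 225, 141 and 124 CPM in the young AAV-EGFP libraries, 178, 367 and 592 CPM in the aged AAV-EGFP libraries and 122, 131 and 52.6 CPM in the aged AAV-B3GNT3 libraries. The gap between the aged AAV-EGFP and the aged AAV-B3GNT3 libraries was wider in the smaller sub-cluster, as a description with no test. Per 1000 ribosomal UMIs, Clu in astrocytes as a whole measured 145, 92.9 and 87.6 UMIs in the young AAV-EGFP libraries, 103, 111 and 129 UMIs in the aged AAV-EGFP libraries and 128, 123 and 88.3 UMIs in the aged AAV-B3GNT3 libraries, with all groups overlapping.

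Outside astrocytes Clu passed in no class. In fibroblasts it measured 32.4, 41 and 35.5 CPM in the young AAV-EGFP libraries, 46.6, 67 and 46.5 CPM in the aged AAV-EGFP libraries and 26.7, 20.3 and 30.4 CPM in the aged AAV-B3GNT3 libraries, without overlap in either comparison, from 189 UMIs. Clu had a log2 fold change there of 0.56 ± 0.27 with age (adjusted p = 0.323) and -1.08 ± 0.29 with treatment (adjusted p = 0.153). In microglia Clu pointed the other way with age, from 109 UMIs: 43.2, 51.5 and 21.5 CPM in the young AAV-EGFP libraries, 10.6, 30 and 24.4 CPM in the aged AAV-EGFP libraries and 29.5, 32.7 and 16.7 CPM in the aged AAV-B3GNT3 libraries. Its fitted log2 change was -0.86 ± 0.44 (adjusted p = 0.282), and the groups overlapped. Per 1000 ribosomal UMIs they did not, at 25.2, 25.6 and 13 UMIs in the young AAV-EGFP libraries, 4.03, 7.38 and 7.66 UMIs in the aged AAV-EGFP libraries and 16.8, 20.4 and 7.96 UMIs in the aged AAV-B3GNT3 libraries. The nearest values of the aged groups, 7.66 and 7.96 UMIs, were close together. The divisor was highest in aged AAV-EGFP, so this scale lowers that group relative to CPM for any gene, and no fall of Clu is read from it. The 10 astrocyte markers summed to 1281 to 1582 CPM in young AAV-EGFP, 888 to 1043 CPM in aged AAV-EGFP and 905 to 1499 CPM in aged AAV-B3GNT3 in those same microglial nuclei, and free RNA was estimated at 11 to 39.4% of microglial Clu UMIs.

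Apod fell with treatment in oligodendrocytes and missed the threshold in every class with age in the fit used throughout. Its level was highest in fibroblasts, 767 ± 203 CPM, and then in oligodendrocytes, 407 ± 134 CPM, with this order in 9 of 9 libraries and at most 92.8 CPM in every other class. In oligodendrocytes it measured 267, 307 and 495 CPM in the young AAV-EGFP libraries, 403, 599.5 and 625 CPM in the aged AAV-EGFP libraries and 324, 314 and 326 CPM in the aged AAV-B3GNT3 libraries. Young replicate 3 was above the lowest aged AAV-EGFP library, and the 3 aged AAV-B3GNT3 libraries lay close together below all aged AAV-EGFP libraries. The oligodendrocyte marker sum and the mitochondrial share, given with Apoe above, did not overlap between the aged groups either. Their part in the Apod values was not tested. The log2 fold change of Apod was 0.61 ± 0.21 with age (adjusted p = 0.0577) and -0.76 ± 0.21 with treatment (adjusted p = 0.0421), a 1.69-fold fall. The fall did not pass without young AAV-EGFP replicate 2, aged AAV-EGFP replicates 2 or 3 or aged AAV-B3GNT3 replicates 1, 2 or 3, at adjusted p up to 0.155, nor with free RNA subtracted (-0.61 ± 0.22, adjusted p = 0.148). The rise with age passed with the replicate number as a block (0.63, adjusted p = 0.0239), and also in DESeq2, without a filter on low counts and without aged AAV-EGFP replicate 1 or young AAV-EGFP replicate 3 (0.59 to 0.92, adjusted p from 0.000685 to 0.0441). With the ribosomal covariate the change with treatment was -0.10 ± 0.52 (adjusted p = 0.983) and that with age 0.00 ± 0.48, and per 1000 ribosomal UMIs the groups overlapped, at 220.4, 202 and 381 UMIs in the young AAV-EGFP libraries, 205, 196 and 244 UMIs in the aged AAV-EGFP libraries and 269.9, 263 and 229.7 UMIs in the aged AAV-B3GNT3 libraries.

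Oligodendrocytes held a small cluster led by Enpp6, a marker of newly formed oligodendrocytes, with 1327 of 20302 nuclei, in which Apod was higher. It measured 521, 619.9 and 1658 CPM in the young AAV-EGFP libraries, 767, 1411 and 1540.5 CPM in the aged AAV-EGFP libraries and 846, 1101 and 871 CPM in the aged AAV-B3GNT3 libraries there. In the 18975 other oligodendrocytes it measured 227, 265 and 362 CPM in the young AAV-EGFP libraries, 347, 494 and 482 CPM in the aged AAV-EGFP libraries and 263, 262 and 266 CPM in the aged AAV-B3GNT3 libraries. In the larger cluster too, the aged AAV-B3GNT3 libraries were below all aged AAV-EGFP libraries, and young replicate 3 was above the lowest of them. With the Enpp6 cluster left out, a choice made after seeing the data, the log2 fold change was 0.63 ± 0.18 with age (adjusted p = 0.0274), past the threshold, and -0.85 ± 0.18 with treatment (adjusted p = 0.0152). At the finer clustering, in which the groups filled different clusters, Apod in the Fbxw15 cluster measured 259.6, 218 and 216 CPM in the young AAV-EGFP libraries, 372, 466 and 423 CPM in the aged AAV-EGFP libraries and 189.6, 187 and 226 CPM in the aged AAV-B3GNT3 libraries, and in the C030029H02Rik cluster 182, 180.4 and 234 CPM in the young AAV-EGFP libraries, 279, 388 and 464 CPM in the aged AAV-EGFP libraries and 206, 203 and 231 CPM in the aged AAV-B3GNT3 libraries. In both, the aged AAV-EGFP libraries were above all others. So they were in the 9330111N05Rik cluster, at 238 to 409.9 CPM in young AAV-EGFP, 431 to 668 CPM in aged AAV-EGFP and 325 to 375 CPM in aged AAV-B3GNT3. In the finer cluster led by Enpp6 the groups overlapped, at 363 to 1039 CPM in young AAV-EGFP, 609 to 2013 CPM in aged AAV-EGFP and 671 to 734 CPM in aged AAV-B3GNT3. These values too are a description with no test.

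In fibroblasts Apod did not separate the groups in CPM. It measured 469, 639 and 942 CPM in the young AAV-EGFP libraries, 527, 941 and 1002 CPM in the aged AAV-EGFP libraries and 739, 674 and 968 CPM in the aged AAV-B3GNT3 libraries, and each group held a library at 941 CPM or above. Per 1000 ribosomal UMIs the aged groups did not overlap, and the aged AAV-B3GNT3 libraries were the higher, at 334, 318 and 549 UMIs in the young AAV-EGFP libraries, 197, 285 and 325 UMIs in the aged AAV-EGFP libraries and 520.5, 523 and 418 UMIs in the aged AAV-B3GNT3 libraries. Fibroblasts were the 1 class of 10 in which the aged groups did not overlap for Apod on this scale. The divisor was itself higher in aged AAV-EGFP fibroblasts, at 2682 to 3305 CPM against 1289 to 2319 CPM in aged AAV-B3GNT3. A gene with level CPM would come out lower in aged AAV-EGFP on this scale, so no rise of Apod is read from it. The adjusted p of Apod was at least 0.264 with treatment in every class other than oligodendrocytes. Among the fibroblasts, the cluster led by Lama1 carried most of it, at 675, 799 and 1335 CPM in the young AAV-EGFP libraries, 787, 1290.2 and 1413 CPM in the aged AAV-EGFP libraries and 1223, 1065 and 1496 CPM in the aged AAV-B3GNT3 libraries. The cluster led by Bnc2 measured 106, 75.6 and 137 CPM in the young AAV-EGFP libraries, 97.5, 81.2 and 183 CPM in the aged AAV-EGFP libraries and 100.4, 80.8 and 98.2 CPM in the aged AAV-B3GNT3 libraries. The values of the clusters did not overlap.

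**Figure D4:**
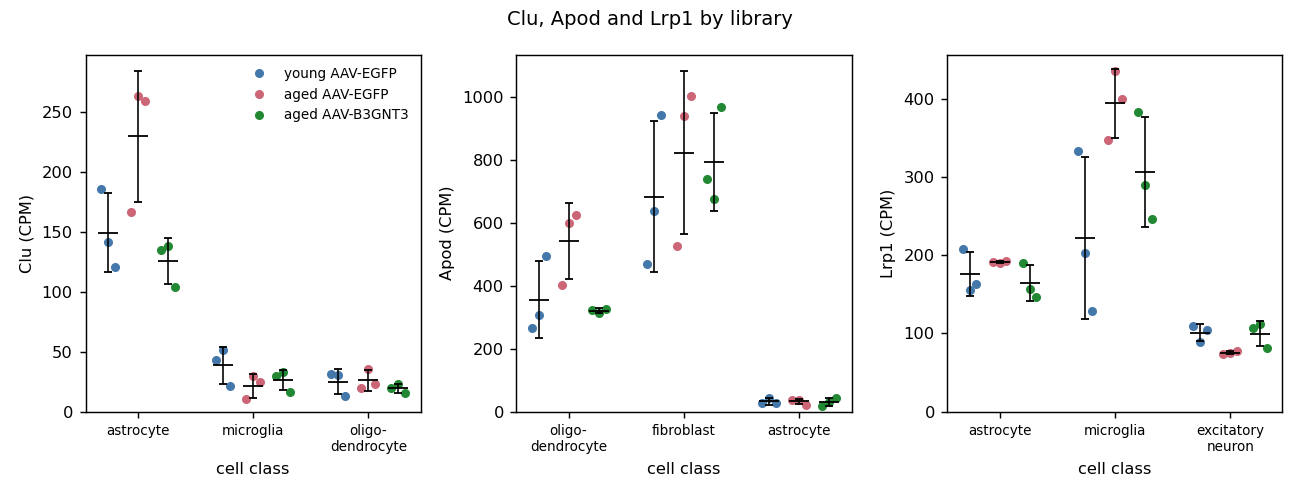
Clu (left), Apod (middle) and Lrp1 (right) in CPM (y axes) in each library, by cell class (x axes) and group (colour), with the mean as a black bar and the SD of 3 libraries as whiskers. Clu in astrocytes and Apod in oligodendrocytes are lower in every aged AAV-B3GNT3 library than in every aged AAV-EGFP library, Apod in fibroblasts overlaps in all groups, and Lrp1 in excitatory neurons is lower in every aged AAV-EGFP library than in every young library.

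The exporters Abca1 and Abcg1 passed in no class in either comparison in the fit used throughout. Abca1, which loads lipid onto lipid-poor apolipoproteins, was highest in microglia at 586 ± 53.6 CPM and next in astrocytes at 329 ± 69.5 CPM, with this order in 9 of 9 libraries. Fibroblasts (249 ± 57.1 CPM) and precursors (202 ± 34.7 CPM) were lower, and excitatory neurons were lowest (12.8 ± 4.26 CPM). Abcg1, which loads lipid onto particles that already hold some, had another order, with oligodendrocytes at 108 ± 12 CPM, precursors at 90.7 ± 24.8 CPM, microglia at 72.2 ± 27.9 CPM and astrocytes lowest at 5.35 ± 1.31 CPM. Oligodendrocytes were above precursors in 5 of 9 libraries. These held every young AAV-EGFP library, while the order was mixed in both aged groups. Free RNA was estimated at 85.9 to 152% of the Abcg1 UMIs of astrocytes, where the estimate can exceed the count, so that level cannot be told from background.

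In astrocytes Abca1 measured 304, 218 and 272 CPM in the young AAV-EGFP libraries, 265, 372 and 443 CPM in the aged AAV-EGFP libraries and 378, 345 and 360.4 CPM in the aged AAV-B3GNT3 libraries. The young and the aged AAV-EGFP libraries overlapped, and the aged AAV-B3GNT3 libraries lay inside the aged AAV-EGFP range. The fitted change (log2) with age was 0.44 ± 0.18 (adjusted p = 0.117), and it passed without aged AAV-EGFP replicate 1 (0.64, adjusted p = 0.0121). In microglia Abca1 measured 634, 554 and 487 CPM in the young AAV-EGFP libraries, 587, 669.9 and 546 CPM in the aged AAV-EGFP libraries and 578, 620.3 and 594 CPM in the aged AAV-B3GNT3 libraries, with all groups overlapping.

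Abca1 was highest in the aged AAV-B3GNT3 libraries in a pair of other classes. In fibroblasts it measured 237, 174 and 236 CPM in the young AAV-EGFP libraries, 233, 174 and 246 CPM in the aged AAV-EGFP libraries and 279.8, 342 and 318 CPM in the aged AAV-B3GNT3 libraries, without overlap between the aged groups. With treatment its log2 fold change was 0.53 ± 0.19 (adjusted p = 0.307). In striatal-type projection neurons it measured 16.1, 11.2 and 11.2 CPM in the young AAV-EGFP libraries, 8.88, 17 and 17.2 CPM in the aged AAV-EGFP libraries and 33.7, 21.4 and 22 CPM in the aged AAV-B3GNT3 libraries, again without overlap, at a log2 fold change of 0.81 ± 0.26 (adjusted p = 0.148), which passed without a filter on low counts (0.82, adjusted p = 0.0129). The p-values of that unfiltered fit make little allowance for estimating the spread from 9 libraries. Over all 9 classes tested the fitted log2 fold change of Abca1 lay between 0.01 and 0.44 with age and between -0.08 and 0.81 with treatment, with an adjusted p of at least 0.117 and 0.148.

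Abcg1 came closest to the threshold in oligodendrocyte precursors. There it measured 70.7, 58.6 and 71.2 CPM in the young AAV-EGFP libraries, 85.5, 134 and 115 CPM in the aged AAV-EGFP libraries and 107, 74.8 and 99.7 CPM in the aged AAV-B3GNT3 libraries. Every aged AAV-EGFP library was above every young library, and the aged groups overlapped. Its fitted log2 change was 0.75 ± 0.19 with age (adjusted p = 0.0830) and -0.25 ± 0.19 with treatment (adjusted p = 0.645). With age it passed at the finer clustering (0.84, adjusted p = 0.0105), without the upper limit on genes, without a filter on low counts and without aged AAV-EGFP replicate 1 (0.74 to 0.91, adjusted p from 0.00521 to 0.0258 over these). In oligodendrocytes the order of the ages was the opposite, with 119, 113 and 127 CPM in the young AAV-EGFP libraries, 104, 94.2 and 99.1 CPM in the aged AAV-EGFP libraries and 104, 119 and 91.8 CPM in the aged AAV-B3GNT3 libraries. In excitatory neurons the aged AAV-B3GNT3 libraries, at 29.4 to 33 CPM, were above the aged AAV-EGFP libraries, at 21.8 to 26.3 CPM. The log2 fold change with treatment was 0.36 ± 0.11 (adjusted p = 0.0857).

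The receptors Lrp1 and Scarb1 fell with age in excitatory neurons, and Scarb1 rose there with treatment. Lrp1, a large endocytic receptor for apolipoprotein E and many other ligands, was highest in microglia (308 ± 99.9 CPM), fibroblasts (244 ± 35.6 CPM) and precursors (239 ± 48.7 CPM), then in astrocytes (177 ± 21.5 CPM), and lowest in oligodendrocytes (16.7 ± 4.29 CPM), below the next class, endothelial cells, in 9 of 9 libraries. Microglia were above fibroblasts in 7 of 9 libraries and fibroblasts above precursors in 5 of 9, so these 3 classes overlap. Free RNA was estimated at 54.2 to 117% of the Lrp1 UMIs of oligodendrocytes, so their level was at or near background, unlike that of Abcg1 (3.62 to 8.17%).

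In excitatory neurons Lrp1 measured 109.5, 89 and 104 CPM in the young AAV-EGFP libraries, 73.3, 75.3 and 78.1 CPM in the aged AAV-EGFP libraries and 107, 112 and 81.2 CPM in the aged AAV-B3GNT3 libraries. All aged AAV-EGFP libraries were below all libraries of both other groups. The fitted change (log2) was -0.42 ± 0.12 with age (adjusted p = 0.0425), a 1.34-fold fall, and 0.40 ± 0.12 with treatment (adjusted p = 0.0871), which passed without aged AAV-B3GNT3 replicate 3 (0.53, adjusted p = 0.0194). The call with age did not hold without young AAV-EGFP replicates 1 or 3, aged AAV-EGFP replicates 1, 2 or 3 or aged AAV-B3GNT3 replicate 1, at adjusted p up to 0.134, nor with the block (-0.42, adjusted p = 0.0629), at folds of -0.50 to -0.36 (log2) over the libraries left out. In microglia Lrp1 measured 334, 203 and 129 CPM in the young AAV-EGFP libraries, 348, 436 and 399.6 CPM in the aged AAV-EGFP libraries and 384, 289 and 247 CPM in the aged AAV-B3GNT3 libraries. The young libraries were far apart and all below the aged AAV-EGFP libraries, at a log2 fold change of 0.80 ± 0.26 (adjusted p = 0.0925). This rise passed at the finer clustering, without doublet removal, without the upper limit on genes, without a filter on low counts and without aged AAV-EGFP replicate 1 or young AAV-EGFP replicate 1 (0.80 to 1.26, adjusted p from 0.00580 to 0.0365). With treatment it was -0.37 ± 0.25 (adjusted p = 0.619). In striatal-type neurons the aged AAV-B3GNT3 libraries were above the aged AAV-EGFP libraries, at a log2 fold change of 0.33 ± 0.15 (adjusted p = 0.276).

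Scarb1, the receptor for high-density lipoprotein, had its highest level in endothelial cells, 123 ± 39.7 CPM, and in pericytes, 80.1 ± 37.7 CPM, with endothelial cells above in 8 of 9 libraries. In the endothelial cells it measured 153, 81.7 and 116 CPM in the young AAV-EGFP libraries, 170.4, 105 and 64.7 CPM in the aged AAV-EGFP libraries and 159, 94.7 and 166 CPM in the aged AAV-B3GNT3 libraries, with all groups overlapping. In excitatory neurons it measured 33.3, 33.8 and 30.9 CPM in the young AAV-EGFP libraries, 23.4, 25.5 and 23.2 CPM in the aged AAV-EGFP libraries and 37, 35.8 and 31.5 CPM in the aged AAV-B3GNT3 libraries. The aged AAV-EGFP libraries were below all others there. Scarb1 had a log2 fold change of -0.44 ± 0.10 with age (adjusted p = 0.0182) and 0.53 ± 0.10 with treatment (adjusted p = 0.0347). With age the call did not hold without young AAV-EGFP replicates 2 or 3 or aged AAV-EGFP replicate 3, at adjusted p up to 0.0637, and with treatment not without young AAV-EGFP replicates 2 or 3, aged AAV-EGFP replicates 2 or 3 or aged AAV-B3GNT3 replicates 1 or 2, at adjusted p up to 0.154, nor with the compared groups alone (0.52, adjusted p = 0.0585). In inhibitory neurons the aged groups did not overlap either, at a log2 fold change of 0.33 ± 0.16 with treatment (adjusted p = 0.271). The ribosomal sum in excitatory neurons was 621 to 661 CPM in young AAV-EGFP, 717 to 967 CPM in aged AAV-EGFP and 578 to 646 CPM in aged AAV-B3GNT3, so Lrp1 and Scarb1 were lowest in the group in which it was highest. The 8 oligodendrocyte markers in these nuclei were lowest in that group too. They summed to 225 to 247 CPM in young AAV-EGFP, 107 to 165 CPM in aged AAV-EGFP and 185 to 224 CPM in aged AAV-B3GNT3. The part of these measures in the Lrp1 and Scarb1 values was not tested.

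Lpl was rare in these nuclei. Striatal-type projection neurons held 21.7 ± 8.65 CPM, above the next class in 8 of 9 libraries, and 752 of its UMIs. Outside that class its mean was 6.67 CPM or lower, with 24 UMIs in microglia and 35 in astrocytes, so a change in those classes was not detectable at this depth. In striatal-type neurons it measured 19.2, 15.6 and 15.4 CPM in the young AAV-EGFP libraries, 10.1, 29.7 and 37.8 CPM in the aged AAV-EGFP libraries and 28.5, 18.8 and 19.9 CPM in the aged AAV-B3GNT3 libraries, with 1 aged AAV-EGFP library the lowest and another the highest of all. Its fitted log2 change with age was 0.66 ± 0.35 (adjusted p = 0.266), and it passed without a filter on low counts and without aged AAV-EGFP replicate 1 (0.69 to 1.02, adjusted p from 0.00652 to 0.0324).

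In oligodendrocytes the 3 aged AAV-EGFP libraries were the lowest for Lpl, from 77 UMIs in all: 2.12, 2.37 and 1.77 CPM in the young AAV-EGFP libraries, 0.268, 0.730 and 1.12 CPM in the aged AAV-EGFP libraries and 2.79, 2.42 and 1.61 CPM in the aged AAV-B3GNT3 libraries. The log2 fold change was -1.46 ± 0.49 with age (adjusted p = 0.0512) and 1.53 ± 0.47 with treatment (adjusted p = 0.0567). Neither passed in that fit, although the groups did not overlap. Age passed with the size factors of DESeq2 and without doublet removal (adjusted p = 0.0497 and 0.0436), and treatment without aged AAV-B3GNT3 replicate 3 (1.76, adjusted p = 0.0425). Free RNA was estimated at 26 to 146% of these UMIs, so the level may be background in part or whole, and with that estimate subtracted Lpl had too few counts in oligodendrocytes to be fitted. In inhibitory neurons, from 95 UMIs, the young libraries (2.78 to 4.2 CPM) were above the aged AAV-EGFP libraries (1.34 to 2.31 CPM), at a log2 fold change of -0.83 ± 0.36 (adjusted p = 0.171).

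Counted over genes and classes, 7 of 69 pairs tested passed with age, 5 up and 2 down, which is 10.1%, beside 8176 of 105879 pairs for all genes. With treatment 8 of 69 passed, 1 up and 7 down, or 11.6%, beside 2580 of 105879. Of the 15 calls, 10 were of Apoe. These counts depended on single libraries. With age the count ran from 3 to 6 without any 1 library other than aged AAV-EGFP replicate 1, and was 13 without that one. With treatment it ran from 2 to 8 without any 1 library other than aged AAV-B3GNT3 replicate 2, and was 0 without that one. The counts over all genes in these fits are not given here, so the shifts cannot be read as particular to the 8 genes.

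Read by class, the share of all genes that passed differed widely. In astrocytes 1 of 7 tested genes of the 8 passed with age, where 12.2% of all genes did, and 2 of 7 with treatment, where 4.84% did. In oligodendrocytes 1 of 8 passed with age against 21.2%, and 2 of 8 with treatment against 9.69%. In excitatory neurons 2 of 8 passed with age against 14.4%, and 1 of 8 with treatment against 2.39%. For so few genes these counts with age are near the background. In microglia 1 of 7 passed in each comparison, against 3.83% with age and 0.399% with treatment. In precursors it was 1 of 7 in each, against 0.422% and 0.0656%, and in fibroblasts 1 of 6 in each, against 0.368% and 0.1%. The single gene in each of these 3 classes was Apoe, among 45 and 7 genes called in precursors and 33 and 9 in fibroblasts. None of the 8 genes passed in the other 4 classes. The background there was 0.0202% and 0.121% in endothelial cells (6 tested), 1.51% and 0.228% in pericytes (4 tested), 4.09% and 1.14% in inhibitory neurons (8 tested) and 3.42% and 0.553% in striatal-type neurons (8 tested), with age and treatment in that order. The median log2 fold change of the 7 tested genes in astrocytes was 0.12 with age and -0.07 with treatment, beside -0.01 and 0.02 over all genes.

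**Figure D5:**
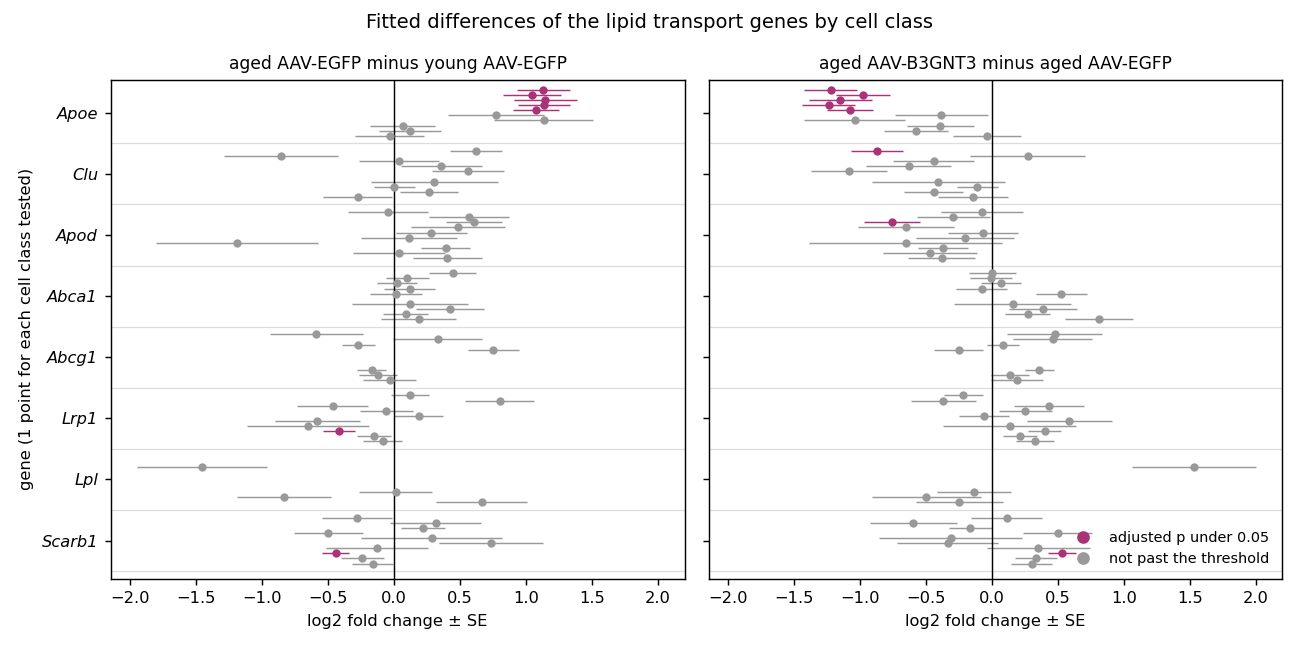
Fitted log2 fold change (x axis) with its SE for the 8 genes (y axis), with age on the left and with treatment on the right, where each point is 1 class and points past an adjusted p of 0.05 are coloured. Within a gene the classes run from top to bottom as astrocytes, microglia, oligodendrocytes, precursors, fibroblasts, pericytes, endothelial cells, excitatory, inhibitory and striatal-type neurons. The coloured Apoe points lie between 1.05 and 1.15 with age and between -1.24 and -0.98 with treatment, both against the same aged AAV-EGFP libraries.

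Whether astrocytes responded differently from microglia or oligodendrocytes was tested gene by gene, as the difference of their log2 CPM within each library. None of the 7 genes tested passed in limma in any of the 4 tests, and 2, 2, 2 and 0 had an unadjusted p under 0.05. Between astrocytes and microglia, 0% of all 7378 genes passed with age and 0% with treatment. Between astrocytes and oligodendrocytes, 1.82% of 11872 genes passed with age and 0.00842% with treatment. For Apoe the change with age in astrocytes minus that in microglia was 0.16 (95% interval -0.64 to 0.97) on the log2 scale, and with treatment -0.23 (95% interval -1.04 to 0.58). Against oligodendrocytes it was -0.03 (95% interval -0.47 to 0.41) and -0.08 (95% interval -0.52 to 0.36). These intervals include differences of up to 1.04 between astrocytes and microglia. The widest gap was that of Clu between astrocytes and microglia, 1.41 (95% interval 0.76 to 2.06) with age (adjusted p = 0.0936) and -1.14 (95% interval -1.79 to -0.49) with treatment (adjusted p = 0.297).

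Among 42 other genes of lipid transport, 36 had enough counts to be tested, in 236 pairs of gene and class. With age 14 pairs rose and 9 fell, of 15 genes in 8 classes, and with treatment 2 rose and 3 fell, of 3 genes. That is 9.75% of the pairs with age, against 7.72% of all pairs, and 2.12% with treatment, against 2.44%, so the counts are near the background and no result about the list. Fabp5, which carries fatty acids inside cells, was the one that moved in both comparisons in the same class. In astrocytes it measured 23.4, 25.3 and 18.9 CPM in the young AAV-EGFP libraries, 35, 50.7 and 49.2 CPM in the aged AAV-EGFP libraries and 23.3, 27.8 and 27 CPM in the aged AAV-B3GNT3 libraries. In oligodendrocytes it measured 17.3, 19 and 12.7 CPM in the young AAV-EGFP libraries, 32.5, 41.6 and 39.5 CPM in the aged AAV-EGFP libraries and 12.2, 13 and 15.6 CPM in the aged AAV-B3GNT3 libraries. The aged AAV-EGFP libraries were above all others in both classes. Per 1000 ribosomal UMIs, Fabp5 in astrocytes measured 18.3, 16.6 and 13.6 UMIs in the young AAV-EGFP libraries, 21.5, 21.3 and 24.5 UMIs in the aged AAV-EGFP libraries and 22.1, 24.6 and 23 UMIs in the aged AAV-B3GNT3 libraries, with overlap between the aged groups. In oligodendrocytes it measured 14.3, 12.5 and 9.74 UMIs in the young AAV-EGFP libraries, 16.5, 13.6 and 15.4 UMIs in the aged AAV-EGFP libraries and 10.1, 10.9 and 10.9 UMIs in the aged AAV-B3GNT3 libraries on that scale, with overlap between the ages. The fitted change (log2) in oligodendrocytes was 1.20 ± 0.19 with age (adjusted p = 0.00200) and -1.47 ± 0.18 with treatment (adjusted p = 0.00407), and in astrocytes 0.99 ± 0.19 (adjusted p = 0.00427) and -0.80 ± 0.19 (adjusted p = 0.0268). It also rose with age in excitatory neurons and fell with treatment in inhibitory neurons.

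Srebf1, the LXR target printed above, rose with age in astrocytes, oligodendrocytes and precursors. In oligodendrocytes it measured 43.1, 29.4 and 25.9 CPM in the young AAV-EGFP libraries, 53.7, 61.3 and 58.7 CPM in the aged AAV-EGFP libraries and 52, 32.9 and 40.4 CPM in the aged AAV-B3GNT3 libraries. The aged AAV-EGFP libraries were the highest 3, by a narrow margin over 1 aged AAV-B3GNT3 library. With age its log2 fold change was 0.80 ± 0.20 in oligodendrocytes (adjusted p = 0.0149), 0.79 ± 0.21 in astrocytes (adjusted p = 0.0276) and 1.16 ± 0.22 in precursors (adjusted p = 0.0439). Abca1, the other gene with the element, did not pass in those classes. Pltp, which moves phospholipids between particles, rose in astrocytes at 1.02 ± 0.31 (adjusted p = 0.0450). Lrpap1, a chaperone of LRP1 and related receptors, rose in oligodendrocytes and inhibitory neurons, and Abca8a and Lipc rose in oligodendrocytes.

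In excitatory neurons 4 of 33 tested genes of this list fell with age and 1 rose, which is 15.2%, near the background of 14.4%. Lrp8, a receptor for apolipoprotein E and reelin, fell by 0.55 on the log2 scale (adjusted p = 0.0119) and Sorl1, a sorting receptor, fell by 0.53 (adjusted p = 0.0147). Sort1 and Abca5 fell there too, and Lrp8 also fell in microglia and oligodendrocytes. Soat1, which esterifies cholesterol, fell in oligodendrocytes and striatal-type neurons, and Abca9 in oligodendrocytes. In pericytes Srebf2, the activator of cholesterol synthesis, and Plin2, a coat protein of lipid droplets, rose with age. With treatment Abca2 rose in astrocytes, at 0.68 ± 0.17 (adjusted p = 0.0329). With the ribosomal covariate 0 of the 236 pairs passed in edgeR in either comparison, with 26 and 18 at an unadjusted p under 0.05. The share of all genes in that fit is not given here, so these counts are no result about the list.

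The genes most like each of the 8 in their level over 11 classes were sought among 7678 genes with at least 50 CPM in a class, by Pearson's r of log2(CPM + 1) averaged over the 9 libraries. The classes share their libraries, and r is given as a description. For Clu the closest was Gfap, the intermediate filament of astrocytes (r = 0.975), followed by Azin1 and Fgfr3. For Apod it was Ptgds, another lipocalin made in fibroblasts of the brain coverings and oligodendrocytes (r = 0.965). For Apoe it was Tcf7l2 (r = 0.961), then Slc10a7 and Hnrnpa2b1. For Abca1 it was Tbl1xr1 (r = 0.949), for Lpl the striatal gene Rasd2 (r = 0.942), for Abcg1 Csmd3 (r = 0.878), for Lrp1 Pdcd4 (r = 0.874) and for Scarb1 Vsig2 (r = 0.838).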

How the data were processed

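The unit is raw UMI counts, deposited as 1 matrix a library. The authors aligned the reads of 10x Genomics 3′ libraries to the mouse genome GRCm38 (mm10 in the submitters' processing notes). Those notes name Cell Ranger 4.0.0 and the matrix headers 7.2.0, and whether intronic reads were counted was not determined. The matrices list barcodes that passed Cell Ranger's filter, before the removal of free RNA and doublets that the study describes.

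The 8 genes and all lists were chosen with earlier results of these data known. The text names the 8 genes in every class, genes of a list of 42 lipid transport genes where they passed, and the 3 genes most alike in level. One gene of that list enters its counts and is not reported here by name. Nuclei with 200 to 5000 genes and no more than 10% of UMIs from mitochondrial genes entered, and doublets were removed at a preset rate of 0.8% per 1000 barcodes (5.07 to 8.21% a library, not a measured rate). Nuclei were clustered with scanpy 1.11.5 (2000 variable genes, 15 principal components, 20 neighbours, Leiden resolution 0.3, finer 1) and took a class name where 3 or more of its markers reached 2 times the median cluster and in 10% of nuclei. A class needed 10 nuclei in every library, which left out the choroid plexus cells.

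Counts were summed per library and class. Genes passing filterByExpr (minimum count 10) were scaled by TMM and fitted by the quasi-likelihood test of edgeR 4.0.16 in R 4.3.3, with all 9 libraries in 1 fit per class, two-sided, and p-values adjusted over all genes of the class by the Benjamini-Hochberg method (threshold 0.05). Differences between classes were tested with limma 3.58.1 on log2 CPM (prior count 2) subtracted within each library. Free RNA was estimated per library and class from markers of other classes (0.25 quantile). Its profile was the summed counts of all barcodes of the library and not that of empty droplets. Alternatives were DESeq2 1.42.0, its size factors in edgeR, no filter, no doublet removal, no upper gene limit, finer clusters, the 2 groups alone, a replicate block, free RNA subtraction and each library left out. Depth was 47332047 to 79964605 UMIs a library. Methods were tested on simulated counts of astrocytes and microglia with a fixed spread, and the outcome is not given here. The simulation held no shift like that of the ribosomal protein genes, so it does not cover that setting. Positions are from GENCODE vM21 (GRCm38).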

Additional observations from a re-analysis of the deposited data

How the results depend on the processing

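With age the 7 calls of the 8 genes became 12 without a filter on low counts, 0 with the ribosomal covariate, and 3 to 13 with a library left out. The p-values of the fit without a filter match those of a normal distribution. They make little allowance for estimating the spread from 9 libraries, and every pass named without a filter has that limit. With treatment the 8 calls became 3 with free RNA subtracted, 4 with the compared groups alone, 0 with the covariate, and 0 to 8 with a library left out. For the 42 other genes, the 23 calls with age became 11 with free RNA subtracted, 12 with the compared groups alone, 0 with the covariate, and 6 to 43 with a library left out. Their 5 calls with treatment became 2, 11 without a filter and 0 with the covariate, and 1 to 11 with a library left out. The counts over all genes under these alternatives are not given here, so the shifts cannot be read as particular to these lists. The cause of these shifts was not tested. The differences between classes had 0 calls under every alternative run, which are a replicate block, a prior count of 0.5, free RNA subtraction and each library left out. The covariate and the fit without the Enpp6 cluster were chosen after seeing the data.

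Same-numbered libraries did not deviate together in every pair of groups. For replicate 1 the correlation was positive in every class between young AAV-EGFP and aged AAV-B3GNT3 (0.05 to 0.26). Between the aged groups it was negative in every class (-0.26 to -0.005). For replicate 3 it was positive in every class between young and aged AAV-EGFP (0.01 to 0.16). Whether the numbers pair the libraries was not determined. With the replicate number as a block the calls with treatment were 5 for the 8 genes and 3 for the others, and the counts with age stayed within 1.5 times. The block ended the calls of Apoe in precursors (both comparisons), microglia and fibroblasts (treatment) and of Lrp1 in excitatory neurons (age), at the log2 fold changes given beside those results, and made a call of Apod in oligodendrocytes (age).

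Values that changed sign were small or uncalled. With the covariate Abcg1 in precursors with treatment was 0.40 (log2), Apoe in endothelial cells -0.63 with age and 0.89 with treatment, Apoe in excitatory neurons with age -0.0699, Lpl in striatal-type neurons with age -0.0538 and Scarb1 in inhibitory neurons with treatment -0.15. With a library left out, Apoe in excitatory neurons with age ran from -0.17 to 0.21, negative without aged AAV-EGFP replicate 2 (-0.16) or young AAV-EGFP replicate 3. Under the other alternatives no result named in the text changed sign. Low counts limit Lpl and the classes with few nuclei.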

Other observations

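Gfap, the gene whose level over the classes was most like that of Clu, did not follow Clu over the libraries. In astrocytes it measured 58.3, 51.9 and 49.6 CPM in the young AAV-EGFP libraries, 51.9, 123 and 114 CPM in the aged AAV-EGFP libraries and 123, 98.8 and 124 CPM in the aged AAV-B3GNT3 libraries. The aged AAV-B3GNT3 libraries lay in or next to the range of the upper 2 aged AAV-EGFP libraries, while their Clu was below all aged AAV-EGFP libraries. The values were not tested against each other.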
